A study of Mus musculus with 6 samples.

Results

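The Hox genes are the 39 homeobox genes that mammals keep in 4 chromosomal clusters, HoxA, HoxB, HoxC and HoxD. They were chosen by gene name alone, as every gene whose symbol is Hoxa, Hoxb, Hoxc or Hoxd followed by a number. That rule took 39 of the 54012 genes in the deposited table, 11 from HoxA, 10 from HoxB, 9 from HoxC and 9 from HoxD, and it used no expression value. RNA sequencing had been done on total RNA from small intestine of 6 mice aged 8 to 12 weeks. Of these, 3 were wild type (WT) and 3 carried the genotype TLR4ΔIEC, a name read as loss of the lipopolysaccharide receptor TLR4 from intestinal epithelial cells. The labels state no Cre driver, no control allele, no sex and no position along the small intestine. No treatment is given for either genotype. Levels are in TPM, a transcript abundance corrected for length and with an equal sum in each library, so that different genes can be set side by side.

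Hox proteins are transcription factors that bind DNA through a homeodomain and give cells their position along the head-to-tail axis. Genes of like position in the 4 clusters form numbered paralogue groups, and low numbers are switched on earlier and further forward in the embryo than high numbers. In the gut the mesenchyme keeps a regional Hox code into adult life, and the caudal-type factors Cdx1 and Cdx2, relatives of the Hox genes, mark the intestinal epithelium.

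Tlr4, the gene named by the genotype, was examined first. Its level was 0.65, 0.57 and 0.70 TPM in WT, against 1.29, 1.22 and 4.81 TPM in the libraries labelled TLR4ΔIEC. Each TLR4ΔIEC library thus lay above each WT library, with a log2 fold change of 0.92 (SE 0.40) and a p of 0.243 (limma) after Benjamini-Hochberg adjustment over all tested genes. Because the targeted gene was not lower, the genotype names below are those of the labels. TLR4ΔIEC replicate 2 held 12221 genes with 1 TPM or more, fewer than any other library (13197 to 13634), and results that rest on it are given with that library named. Depth is unknown, since TPM keep no read totals, and a level of 0 gives no limit on the true level.

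HoxB had the highest summed level of the 4 clusters in each of the 6 libraries, and the end of every cluster with the highest numbers was at or near 0. Averaged over the 6 libraries, 11 of the 39 genes reached 1 TPM. Another 10 had a mean from 0.1 to 1 TPM, 8 were above 0 with a mean under 0.1 TPM, and 10 were listed at 0 in all 6 libraries. Of the 39, 19 were above 0 in each of the 6 libraries.

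By cluster, HoxB (chromosome 11, 96194316 to 96368256, GRCm38) had 8 of its 10 genes at or above that mean, Hoxb2 to Hoxb9 without a gap. Only Hoxb1 and Hoxb13 fell outside that run. HoxC (chromosome 15, 102921103 to 103036852) had 2 of 9 such genes, Hoxc6 and Hoxc8, and 3 at 0 throughout. HoxA (chromosome 6, 52155590 to 52260880) had 1 of 11, Hoxa7, and 2 at 0 throughout. HoxD (chromosome 2, 74668310 to 74765142) had none of 9, and 4 of its genes were at 0 in all 6 libraries. The genes listed at 0 in every library were Hoxa11, Hoxa13, Hoxb1, Hoxc11, Hoxc12, Hoxc13, Hoxd1, Hoxd10, Hoxd11 and Hoxd12. Hoxb1 and Hoxd1 belong to the head end of their clusters, where Hoxb1 is known for its part in the hindbrain. The remaining 8 of these belong to the tail end, whose genes include Hoxa13, known from hindgut and limb.

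**Figure D1:**
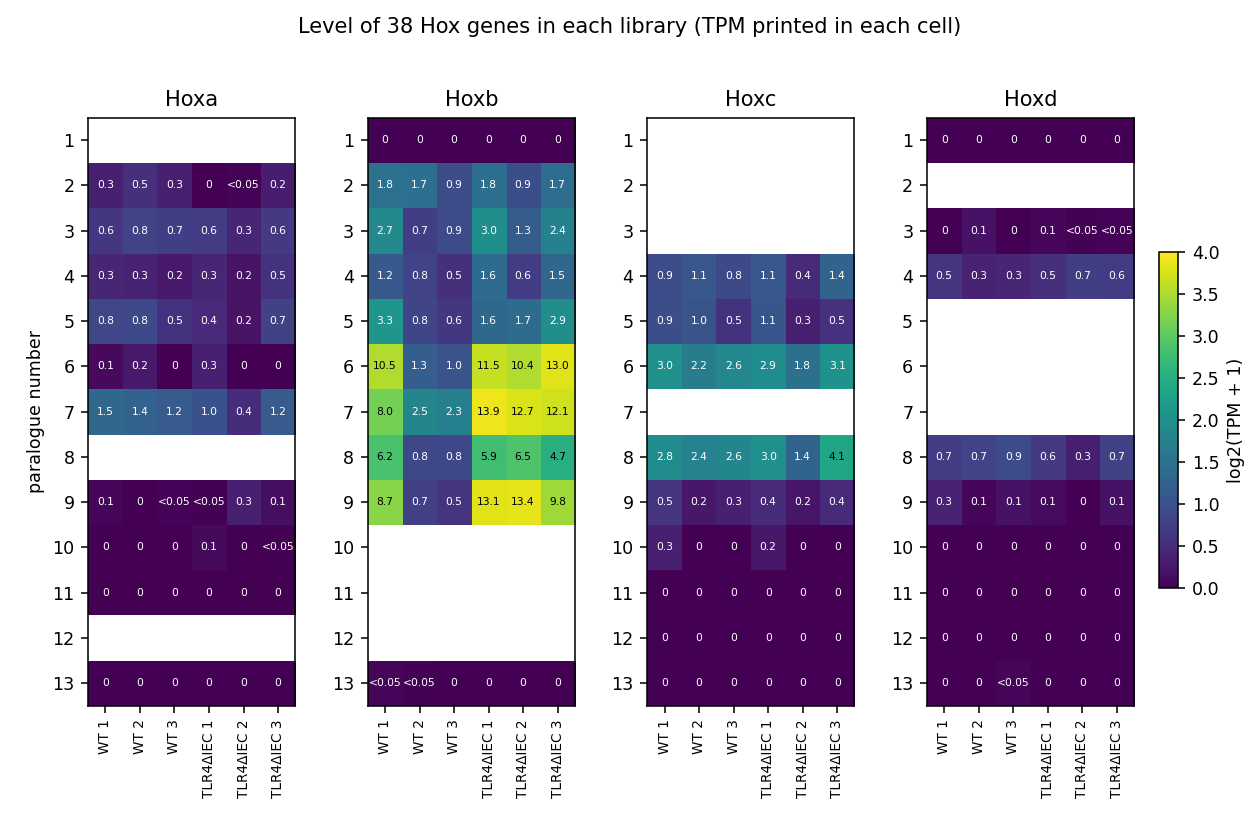
Level of 38 of the 39 Hox genes in each of the 6 libraries. Rows are paralogue numbers 1 to 13, the 4 panels are the clusters, columns are libraries, colour is log2(TPM + 1) and the printed value is TPM; white marks a position with no gene or with a gene that is not shown. The bright block is Hoxb6 to Hoxb9 in WT replicate 1 and the 3 TLR4ΔIEC libraries, and paralogue groups 10 to 13 are dark throughout.

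Seen by paralogue number, the 12 genes of groups 10 to 13 included 8 at 0 in every library, and none reached 1 TPM anywhere. Their highest level was 0.27 TPM, for Hoxc10 in WT replicate 1. All 12 genes of groups 6 to 9 were above 0 in some library, and 7 had a mean of at least 1 TPM. Groups 4 and 5 held 7 genes, none of them at 0 throughout and 2 with such a mean. Groups 1 to 3 held 8 genes, 2 at 0 throughout and 2 with such a mean. Summed over the clusters, groups 6 to 9 gave 12.40 to 52.61 TPM per library, against 0 to 0.31 TPM for groups 10 to 13, whatever the genotype. Within single clusters the fall did not always lie after group 9. Hoxa9 and Hoxd9 were already near 0, with means of 0.082 and 0.122 TPM.

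Counted by library, genes above 0 numbered 26, 25 and 24 in WT replicates 1 to 3 and 25, 23 and 25 in the TLR4ΔIEC libraries. Those at 1 TPM or more varied further, from 11, 8 and 5 in WT to 13, 8 and 12 in TLR4ΔIEC. Within HoxB the corresponding counts were 8, 3 and 2 in WT and 8, 6 and 8 in TLR4ΔIEC. The number of detected genes was thus much the same in the 6 libraries, while the number at 1 TPM or more was lowest in WT replicate 3, followed by WT replicate 2 and TLR4ΔIEC replicate 2.

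In order of mean level, Hoxb7 came first with 8.59 TPM, ahead of Hoxb6 with 7.97, Hoxb9 with 7.71 and Hoxb8 with 4.15 TPM. Hoxc8 (2.73 TPM), Hoxc6 (2.59), Hoxb3 (1.81), Hoxb5 (1.80), Hoxb2 (1.48), Hoxa7 (1.13) and Hoxb4 (1.02) followed. The ranges of neighbouring genes in this order overlapped across the 6 libraries in each case, so the order itself was not resolved. At the threshold, Hoxb4 lay just inside with 1.02 TPM and Hoxc4 just outside with 0.970 TPM.

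Hoxb6, Hoxb7, Hoxb8 and Hoxb9 lie next to each other on the plus strand of chromosome 11, between 96271457 and 96301569. These 4 genes were high in WT replicate 1 and in all 3 TLR4ΔIEC libraries, and low in WT replicates 2 and 3. Their summed level was 33.45, 5.32 and 4.70 TPM in WT, against 44.36, 43.04 and 39.61 TPM in TLR4ΔIEC. They made up 59.5, 24.7 and 25.2% of all Hox TPM in the WT libraries, against 68.3, 79.7 and 63.3% in the TLR4ΔIEC libraries. The other 35 genes together gave 22.77, 16.23 and 13.95 TPM in WT, against 20.58, 10.95 and 22.95 TPM in TLR4ΔIEC, where the genotypes overlapped.

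Because these 4 neighbours varied together, the DNA just before the start of a member is shown, beside that of 2 other HoxB genes with different levels. Each window is the 250 bases before the start in RefSeq on GRCm38.p6, plus strand: Hoxb8 at chr11:96281655-96281904, Hoxb4 at chr11:96318017-96318266 and Hoxb1 at chr11:96365508-96365757. Capitals mark 3 hexamers of the kind that caudal-type factors bind, on either strand: TTTATG, its variant TTTACG, and the related string TATAAA.
Hoxb8: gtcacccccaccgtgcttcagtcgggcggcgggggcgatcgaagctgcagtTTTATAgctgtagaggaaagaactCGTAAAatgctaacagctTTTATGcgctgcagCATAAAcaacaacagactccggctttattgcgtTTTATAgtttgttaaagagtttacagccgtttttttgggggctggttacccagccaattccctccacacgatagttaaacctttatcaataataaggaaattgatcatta
Hoxb4: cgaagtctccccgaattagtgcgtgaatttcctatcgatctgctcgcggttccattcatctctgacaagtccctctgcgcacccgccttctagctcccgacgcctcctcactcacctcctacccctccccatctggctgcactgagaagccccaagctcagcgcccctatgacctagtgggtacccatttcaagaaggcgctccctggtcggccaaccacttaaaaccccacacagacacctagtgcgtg
Hoxb1: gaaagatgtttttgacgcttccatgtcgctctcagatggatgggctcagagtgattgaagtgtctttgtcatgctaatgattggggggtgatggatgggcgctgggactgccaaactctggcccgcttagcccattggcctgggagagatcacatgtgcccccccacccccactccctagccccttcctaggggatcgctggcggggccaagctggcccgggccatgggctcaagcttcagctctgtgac
The Hoxb8 window held 5 matches, and the windows of Hoxb4, expressed at about 1 TPM, and of Hoxb1, at 0 in all libraries, held none. Matches did not follow the level of the gene: TTTATG was also in the windows of Hoxa7, with a mean of 1.13 TPM, and of Hoxd11, at 0 in all libraries, and TATAAA in that of Hoxa10, with a mean of 0.015 TPM. Such windows were at hand for 22 of the 39 Hox genes, 24 windows in all, and of Hoxb6 to Hoxb9 only that of Hoxb8 was among them. TTTATG was in 5 of the 24 Hox windows and in 10.8% of all 32851 windows of that length. TTTACG was in 1 of the 24 and in 2.6% of all, and TATAAA in 4 of the 24 and in 12.4% of all. A match is a string of letters and not a measured binding site.

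Hoxb9 (ENSMUSG00000020875, chromosome 11, 96271457 to 96276595), a gene known from patterning of the ribs, was listed at 8.74, 0.70 and 0.53 TPM in WT, against 13.10, 13.38 and 9.79 TPM in TLR4ΔIEC. Every TLR4ΔIEC library lay above every WT library, yet WT replicate 1 was far closer to TLR4ΔIEC than to its own group. Mean levels were 3.32 ± 4.69 TPM in WT, against 12.1 ± 2.00 TPM in TLR4ΔIEC (SD, n = 3 each). Hoxb7 (ENSMUSG00000038721, 96286623 to 96290162) stood at 7.99, 2.52 and 2.32 TPM in WT, against 13.88, 12.73 and 12.12 TPM in TLR4ΔIEC, with means of 4.28 ± 3.22 and 12.9 ± 0.894 TPM. Its groups did not overlap either.

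Hoxb6 (ENSMUSG00000000690, 96292476 to 96301569) was listed at 10.54, 1.28 and 1.03 TPM in WT, against 11.52, 10.44 and 12.99 TPM in TLR4ΔIEC. Here WT replicate 1 lay within the TLR4ΔIEC range, and the means were 4.28 ± 5.42 and 11.7 ± 1.28 TPM. Hoxb8 (ENSMUSG00000056648, 96281905 to 96285315), which is known from grooming behaviour and myeloid progenitors, had 6.18, 0.82 and 0.82 TPM in WT, against 5.86, 6.49 and 4.71 TPM in TLR4ΔIEC. Again WT replicate 1 lay within the TLR4ΔIEC range.

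**Figure D2:**
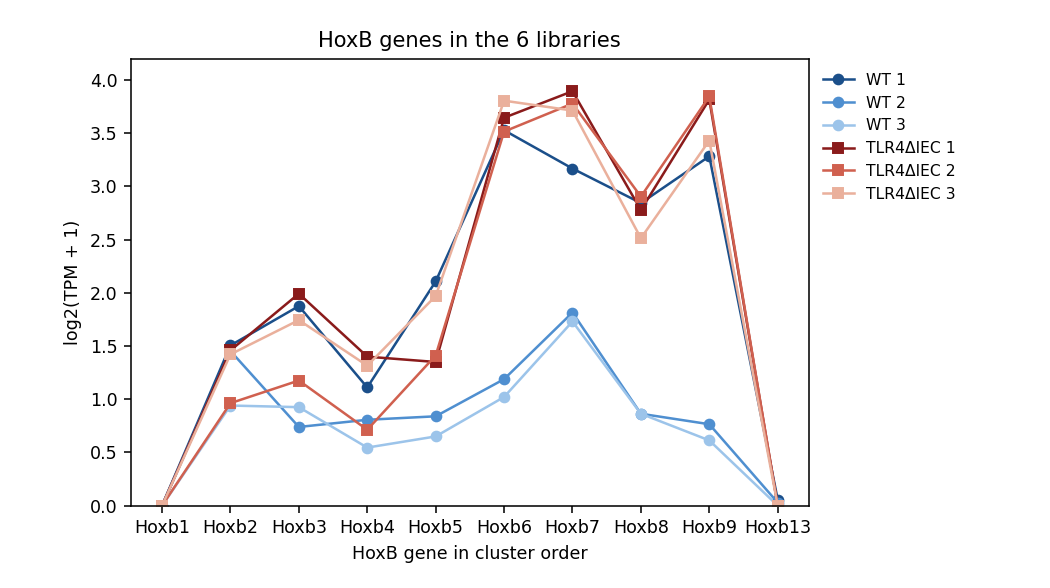
Level of the 10 HoxB genes in cluster order in each library, as log2(TPM + 1); circles and blue are WT, squares and red are TLR4ΔIEC, and lines join the genes of a library. WT replicate 1 follows the 3 TLR4ΔIEC libraries from Hoxb6 to Hoxb9, while WT replicates 2 and 3 lie below them, and all 6 libraries are at or near 0 at Hoxb1 and Hoxb13.

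The comparison of TLR4ΔIEC with WT, the question in the series title, called no Hox gene. None of the 11 genes tested passed an adjusted p of 0.05 in limma, where 16 of all 13458 tested genes did (0.119%), 6 of them higher in TLR4ΔIEC (0.0446%). At an unadjusted p under 0.05 there were 3 of 11, Hoxb6, Hoxb7 and Hoxb9, each higher in TLR4ΔIEC, against 21.2% of all tested genes. Groups did not overlap for 2 of 11, Hoxb7 and Hoxb9, against 27.6% of all tested genes. In both the TLR4ΔIEC libraries were the higher ones, as in 24.1% of all tested genes. The background at an unadjusted p under 0.05 moved with the scaling: it was 12.1% by median-of-ratios, 13.1% after quantile normalization and 13.2% without the 20 highest genes, where 3 of 10, 3 of 10 and 3 of 12 Hox genes passed. Of all genes at that level, 2474 of 2847 were higher in TLR4ΔIEC, against 901 of 1623 by median-of-ratios.

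Hoxb9 had the greatest log2 fold change of the 11, 2.14 (SE 0.67), with an adjusted p of 0.151 in limma. For Hoxb6 it was 1.74 (SE 0.63, adjusted p = 0.182), for Hoxb7 1.56 (SE 0.38, adjusted p = 0.110) and for Hoxb8 1.21 (SE 0.53, adjusted p = 0.246). The median over the 11 Hox genes was 0.38, with 8 positive and 3 negative, beside 0.16 over all tested genes. That median turned on the filter, which can admit a gene through the genotype where it is high. With a mean of at least 0.1 TPM it was 0.003 beside 0.09, and without a filter −0.02 beside 0.02. With a mean of at least 5 TPM, which 3 Hox genes reached, it was 1.74 beside 0.24. All fold changes were taken on log2(TPM + 1), where the pseudocount shrinks those of low genes.

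The outcome turned on WT replicate 1. Without it, Hoxb6 (log2 fold change 2.55, adjusted p = 0.0224), Hoxb9 (3.01, adjusted p = 0.0224) and Hoxb7 (2.02, adjusted p = 0.0319) passed in limma, 3 of 10 tested Hox genes, where 32 of all 13420 tested genes did. Hoxb8 reached 1.87 with an adjusted p of 0.0560. In that fit the remaining WT arm has 2 libraries. Leaving out any other library called no Hox gene.

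**Figure D3:**
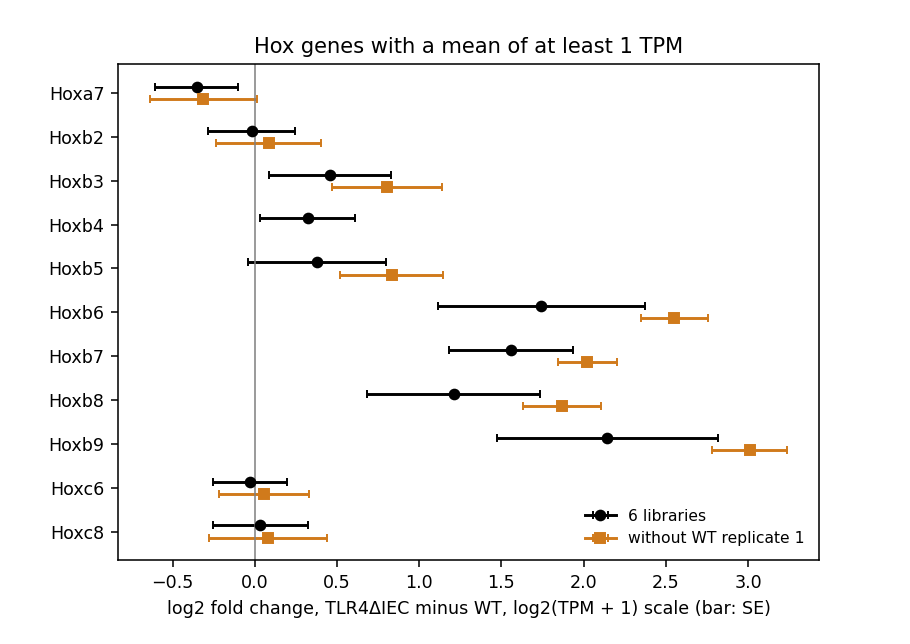
Log2 fold change, TLR4ΔIEC minus WT, with its standard error for the 11 tested Hox genes, in all 6 libraries (black circles) and without WT replicate 1 (orange squares). Hoxb6 to Hoxb9 lie furthest to the right in both fits and have shorter bars without that library; Hoxb4 has no second value because its mean was then under 1 TPM.

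WT replicate 1 also stood apart from the other WT libraries in this cluster. A level at least 3 times that of either other WT library, a count chosen after these values were seen, was found for 5 of the 11 tested Hox genes and for 1.04% of all tested genes. The 5 genes were Hoxb9, at 12.5 times the higher of the other WT libraries, Hoxb6 at 8.23, Hoxb8 at 7.54, Hoxb5 at 4.19 and Hoxb7 at 3.17 times. Hoxb3, at 2.97 times, came close. All of these are neighbours within HoxB, and no tested gene of HoxA or HoxC was among them.

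The head side of HoxB was expressed at lower mean levels, and its genotypes overlapped, as they also did for Hoxb6 and Hoxb8. Hoxb5, known from the enteric nervous system, was listed at 3.31, 0.79 and 0.57 TPM in WT, against 1.55, 1.66 and 2.92 TPM in TLR4ΔIEC. Hoxb4, known from blood stem cells, had 1.16, 0.75 and 0.46 TPM in WT, against 1.64, 0.64 and 1.49 TPM in TLR4ΔIEC. For Hoxb5, WT replicates 2 and 3 were again the lowest libraries and WT replicate 1 the highest; for Hoxb4, TLR4ΔIEC replicate 2 lay between the 2 low WT libraries.

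Hoxb3 was at 2.67, 0.67 and 0.90 TPM in WT, against 2.98, 1.26 and 2.35 TPM in TLR4ΔIEC. Hoxb2, like Hoxb3 a hindbrain gene in the embryo, was at 1.84, 1.74 and 0.92 TPM in WT, against 1.75, 0.95 and 1.68 TPM in TLR4ΔIEC. The log2 fold changes of Hoxb2, Hoxb3, Hoxb4 and Hoxb5 were −0.02 (SE 0.26), 0.46 (SE 0.37), 0.32 (SE 0.29) and 0.38 (SE 0.42), and their adjusted p-values ran from 0.524 to 0.977 in limma. The sign for Hoxb2 turned with the scaling, being 0.02 after quantile normalization. Without WT replicate 1 the log2 fold changes of Hoxb3 and Hoxb5 were 0.80 (SE 0.33, adjusted p = 0.279) and 0.83 (SE 0.31, adjusted p = 0.242) in limma. That of Hoxb2 was then 0.08 (SE 0.32), and Hoxb4 was not tested.

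Hoxc8 and Hoxc6 varied less across the libraries than Hoxb6 to Hoxb9 did. Hoxc8, known from vertebrae of the trunk, was listed at 2.84, 2.42 and 2.56 TPM in WT, against 3.01, 1.45 and 4.11 TPM in TLR4ΔIEC. Hoxc6 was at 3.04, 2.20 and 2.59 TPM in WT, against 2.85, 1.77 and 3.10 TPM in TLR4ΔIEC. Their log2 fold changes were 0.03 (SE 0.29) and −0.03 (SE 0.23), and that of Hoxc8 was −0.09 after median-of-ratios scaling. In both genes TLR4ΔIEC replicate 2 was the lowest of the 6 libraries and TLR4ΔIEC replicate 3 the highest.

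Below the filter, Hoxc4 had 0.90, 1.13 and 0.85 TPM in WT, against 1.12, 0.40 and 1.42 TPM in TLR4ΔIEC. Hoxc5 had 0.95, 1.03 and 0.50 TPM in WT, against 1.11, 0.27 and 0.48 TPM in TLR4ΔIEC. These were the only 2 genes with a mean under 1 TPM that reached 1 TPM in some library, and for both the genotypes overlapped. Summed over HoxC, the level was 8.52, 6.98 and 6.77 TPM in WT, against 8.69, 4.07 and 9.52 TPM in TLR4ΔIEC, again overlapping.

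In HoxA, Hoxa7 alone had a mean above 1 TPM. It was listed at 1.50, 1.38 and 1.22 TPM in WT, against 1.01, 0.42 and 1.22 TPM in TLR4ΔIEC, a log2 fold change of −0.35 (SE 0.25, adjusted p = 0.468 in limma). Hoxa7 is the HoxA paralogue of Hoxb7, and its sign was the opposite. The HoxA sum was 3.74, 4.03 and 2.92 TPM in WT, against 2.77, 1.41 and 3.47 TPM in TLR4ΔIEC. Hoxa2, named after its values were seen, was at 0.27, 0.45 and 0.27 TPM in WT, against 0, 0.03 and 0.24 TPM in TLR4ΔIEC. Its groups did not overlap, as in 27.6% of all tested genes, but came as close as 0.24 and 0.27 TPM. Hoxa2 was near 0 and too low for the main test. In the fit without a filter its log2 fold change was −0.29 (adjusted p = 0.318 in limma).

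HoxD was the weakest cluster, with sums of 1.49, 1.25 and 1.41 TPM in WT, against 1.20, 0.96 and 1.52 TPM in TLR4ΔIEC. Its highest gene was Hoxd8, with a mean of 0.643 TPM, and no HoxD gene reached 1 TPM in any library. HoxB, in contrast, summed to 42.47, 9.29 and 7.55 TPM in WT, against 52.28, 47.55 and 48.05 TPM in TLR4ΔIEC. WT replicate 1 was thus several-fold above the other WT libraries in the HoxB sum, but not in the sums of HoxA, HoxC or HoxD.

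Hox clusters also hold microRNAs, short RNAs that pair with messengers through a seed of bases 2 to 8. The mature sequences of the miR-10 and miR-196 families from RefSeq (GRCm38.p6) are shown because their genes lie between the Hox genes described here and because miR-196 is known to direct cleavage of the Hoxb8 messenger. Capitals mark the seed, which is shared within each family.
miR-10a-5p: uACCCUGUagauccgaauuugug
miR-10b-5p: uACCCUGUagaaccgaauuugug
miR-196a-5p: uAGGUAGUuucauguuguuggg
miR-196b-5p: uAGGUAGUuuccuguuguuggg
Mir196a-1 lies on chromosome 11 at 96265187 to 96265208, next to Hoxb9, and Mir10a at 96317186 to 96317208, next to Hoxb4. The near-complete match to miR-196a in the 3′ UTR of Hoxb8 lies in exon 2 at chr11:96284888-96284909, plus strand, and the capital marks its single base that is not a Watson-Crick partner. That base lies opposite the seed, so this site is not itself a perfect seed match.
Hoxb8 site: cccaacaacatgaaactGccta
A perfect match to the miR-196 seed was present in the annotated transcripts of 11 of the 39 Hox genes, among them Hoxb6, Hoxb7, Hoxb8, Hoxa7 and Hoxc8, and to the miR-10 seed in 7 of 39. For Hoxb8 the perfect seed match lies elsewhere in its transcripts than the site shown. The miRNA genes Mir10a, Mir10b, Mir196a-1, Mir196a-2 and Mir196b were listed at 0 in all 6 libraries. The labels name no small RNA library, so no level of the mature miRNAs is given.

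Markers of the cells and gut regions a sample can hold differed between the libraries too. Smooth muscle markers (10 of 10 tested, 0 called), led by Acta2 and Actg2, summed to 841.13, 376.74 and 342.56 TPM in WT, against 434.70, 264.49 and 809.51 TPM in TLR4ΔIEC. WT replicate 1 thus had the highest sum for muscle, with a median of 2.26 times the mean of the other WT libraries over the list, and TLR4ΔIEC replicate 2 had the lowest. In RNA from tissue, fewer cells of a type and less RNA per cell cannot be told apart.

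Fibroblast markers (10 of 10 tested, 0 called), led by Dcn and Col3a1, summed to 309.02, 240.03 and 199.21 TPM in WT, against 321.69, 86.50 and 198.81 TPM in TLR4ΔIEC. Enteric neuron markers (6 of 10 tested, 0 called), led by Vip and Uchl1, ranged from 22.21 to 35.88 TPM in WT and from 11.36 to 43.49 TPM in TLR4ΔIEC. Endothelial markers (5 of 6 tested, 0 called), led by Pecam1 and Lyve1, ranged from 25.61 to 36.20 TPM in WT and from 13.73 to 33.28 TPM in TLR4ΔIEC. In limma the lists of smooth muscle, fibroblasts, neurons and endothelium had 0 genes at an unadjusted p under 0.05, beside 21.2% of all tested genes. In fibroblast, neuron and endothelial markers alike, TLR4ΔIEC replicate 2 was the lowest library.

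Leukocyte markers (6 of 6 tested, 0 called, 0 at an unadjusted p under 0.05), led by Lyz2 and C1qa, ranged from 153.55 to 180.23 TPM in WT and from 59.82 to 242.59 TPM in TLR4ΔIEC. Of the enteric glia markers only Erbb3, which epithelium also expresses, was tested. Epithelial markers (7 of 7 tested, 0 called, 4 at an unadjusted p under 0.05 beside 21.2% of all tested genes, all positive), led by Krt8 and Krt19, ranged from 7915 to 8523 TPM in WT and from 10248 to 13978 TPM in TLR4ΔIEC. The epithelial list was thus the one cell type list whose sums did not overlap between the genotypes. Among single genes, 24.1% of those tested had every TLR4ΔIEC library above every WT library. These sums are of TPM as listed, without rescaling.

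Hoxb7, Hoxb8 and Hoxb9 did not drop in TLR4ΔIEC replicate 2, where the stromal lists did. So did the tested Hox genes outside Hoxb6 to Hoxb9, except Hoxb5. Hoxb5 was at 1.55, 1.66 and 2.92 TPM in TLR4ΔIEC replicates 1 to 3. Hoxb6 was slightly lower in replicate 2, by about as much as the median of all tested genes. Set against the mean of TLR4ΔIEC replicates 1 and 3, comparisons chosen after the values were seen, replicate 2 had 0.852 times as much Hoxb6, 0.979 times as much Hoxb7, 1.23 times as much Hoxb8 and 1.17 times as much Hoxb9. For the other 7 tested Hox genes the ratio ran from 0.377 for Hoxa7 and 0.407 for Hoxc8 to 0.743 for Hoxb5. The median ratio was 0.313 over fibroblast markers, 0.373 over smooth muscle markers and 0.478 over enteric neuron markers, against 1.32 over epithelial markers and 0.864 over all tested genes. What the cell makeup of the samples contributes to the Hox levels was not tested.

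**Figure D4:**
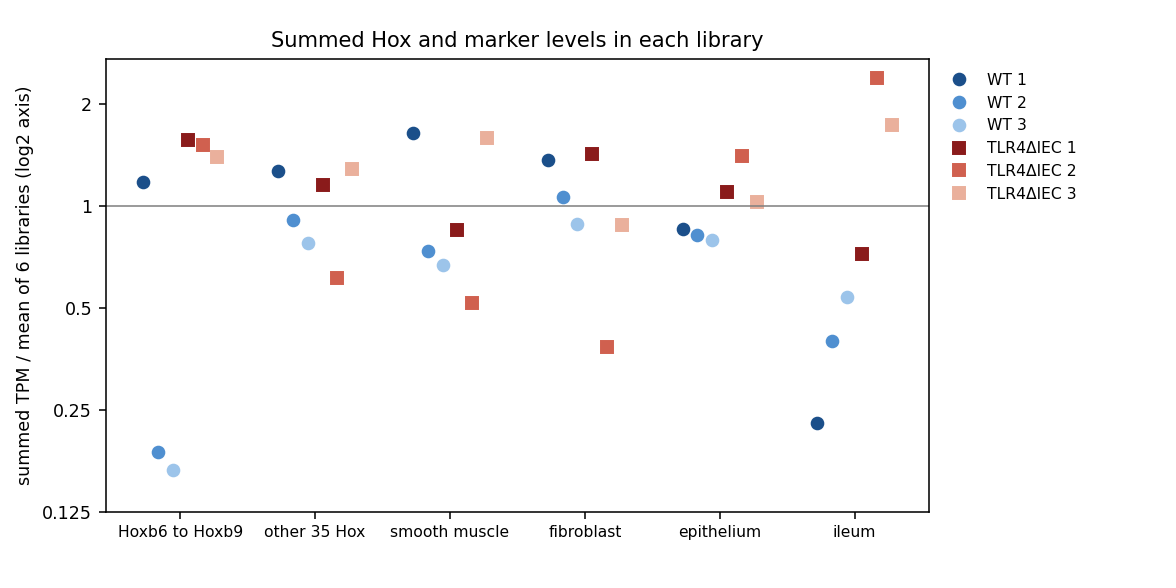
Summed TPM of Hoxb6 to Hoxb9, of the other 35 Hox genes and of 4 marker lists in each library, divided by the mean of the 6 libraries, on a log2 axis; circles are WT and squares TLR4ΔIEC. Only Hoxb6 to Hoxb9 put WT replicates 2 and 3 far below all others, and in TLR4ΔIEC replicate 2 the other Hox genes, smooth muscle and fibroblast markers are low while Hoxb6 to Hoxb9 are not.

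Among lists of genes that mark positions along the small intestine, chosen with earlier results of these data known, only the proximal one held calls. Of 7 tested genes typical of the proximal part, 3 fell and 1 rose in TLR4ΔIEC, where 0.119% of all tested genes were called. Lct, the enzyme lactase, was at 67.37, 60.08 and 21.47 TPM in WT, against 0.17, 0.87 and 0.52 TPM in TLR4ΔIEC (log2 fold change −4.93, adjusted p = 0.0316 in limma). Gata4, a transcription factor of the proximal epithelium, was at 17.33, 31.44 and 17.04 TPM in WT, against 0.23, 1.28 and 2.20 TPM in TLR4ΔIEC (−3.41, adjusted p = 0.0494). Apoa4, a lipoprotein component, fell by 2.55 on the log2 scale (adjusted p = 0.0350), and S100g, a calcium-binding protein, rose by 3.00 (adjusted p = 0.0350). These 4 were the only calls among the 131 tested genes of all lists; the count was 0 without WT replicate 2, TLR4ΔIEC replicate 2 or TLR4ΔIEC replicate 3, 1 without WT replicate 3 and 10 without TLR4ΔIEC replicate 1, and 0 with a replicate block.

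The list of 8 ileal genes, led by the bile acid binding protein Fabp6 and the transporter subunit Slc51a, had 0 called, 6 at an unadjusted p under 0.05 (21.2% of all tested genes) and 7 positive, with a median log2 fold change of 1.06. Its sum was 3558.5, 6211.7 and 8399.7 TPM in WT, against 11242, 37182 and 27112 TPM in TLR4ΔIEC. Most of that sum was Fabp6, at 2351.7, 5211.6 and 7320.6 TPM in WT, against 9525.5, 34630 and 24710 TPM in TLR4ΔIEC. In Fabp6, WT replicate 1 was the lowest of the 6 libraries. The same held for the ileal gene Fgf15, at 0.70, 33.15 and 27.56 TPM in WT, against 1.40, 28.54 and 20.32 TPM in TLR4ΔIEC. In 5 of the 8 ileal genes (Slc10a2, Slc51a, Cubn, Amn and Osr2), by contrast, WT replicate 1 was the highest WT library, and over the list its median was 1.22 times the mean of the other WT libraries. Its Lct and Gata4 were at WT levels. Colonic genes gave 0 called of 4 tested and 3 at an unadjusted p under 0.05, again beside 21.2% of all tested genes, with Saa1 and Car4 the highest, and the colon marker Aqp8 was at 0 in all libraries. What the position of the samples contributes to the Hox levels was not tested.

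Factors that act with or upon Hox genes gave no call in limma in any of 6 lists, beside 0.119% of all tested genes. At an unadjusted p under 0.05 there was 1 of the TALE cofactors, 1 ParaHox gene, 3 Polycomb and 3 trithorax genes, all higher in TLR4ΔIEC, and 3 higher and 1 lower retinoic acid genes and 1 lower mesenchymal factor, beside 21.2% of all tested genes. The direction moved with the scaling: over all 18 lists, 27 of the 33 genes at that level were higher in TLR4ΔIEC, against 13 of 28 by median-of-ratios. The TALE cofactors, homeodomain partners that bind DNA with Hox proteins, had 8 tested, a median log2 fold change of 0.08, and Pbx2 as the highest. It stood at 21.41, 19.82 and 24.29 TPM in WT, against 26.21, 24.61 and 28.29 TPM in TLR4ΔIEC. Pbx4, named after its values were seen, was at 3.00, 0.75 and 1.20 TPM in WT, against 3.25, 3.55 and 3.96 TPM in TLR4ΔIEC, with WT replicate 1 again the highest WT library (log2 fold change 0.88, adjusted p = 0.185 in limma).

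Cdx1 and Cdx2, regulators of intestinal identity and of Hox genes, were the only 2 tested of 6 ParaHox genes, and Cdx4, Gsx1 and Gsx2 were at 0 in all libraries. Cdx1 was at 119.81, 109.17 and 93.34 TPM in WT, against 147.51, 173.70 and 150.00 TPM in TLR4ΔIEC, without overlap (log2 fold change 0.55, adjusted p = 0.121 in limma). Cdx2 was at 92.50, 107.73 and 88.18 TPM in WT, against 102.91, 162.46 and 121.51 TPM in TLR4ΔIEC, with overlap (0.40, adjusted p = 0.292). In neither gene did WT replicate 1 stand apart from the WT libraries as it did in Hoxb6 to Hoxb9.

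Polycomb proteins, which keep Hox genes silent, had 19 of 20 tested and a median of 0.09, and Jarid2 and Phc2 were the highest. The trithorax group, which keeps Hox genes active, had 13 tested and a median of 0.18, with Dpy30 and Ash2l the highest. Genes of retinoic acid, an inducer of the head-side Hox genes, had 8 of 15 tested and a median of 0.22. The highest of these was Aldh1a1, a retinaldehyde dehydrogenase, at 90.38, 48.30 and 53.08 TPM in WT, against 166.86, 235.11 and 196.33 TPM in TLR4ΔIEC (log2 fold change 1.67, adjusted p = 0.0800 in limma), followed by Rxra. Transcription factors of gut mesenchyme had 8 of 13 tested, all negative, with a median of −0.28 and Tcf21 and Nkx2-3 the highest.

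Reads of some Hox genes could belong to a neighbour. Of the 50-base stretches of its transcripts, Hoxb3 shared 51.4% and Hoxb2 25.9% with another gene on either strand, in both cases the antisense RNA Hoxb3os, and Hoxa7 shared 18.7% with Hoxaas3. Hoxd3 and Hoxd4 shared 60.3% and 46.8%, partly with each other, and are uncertain for that reason. For Hoxb6, Hoxb7, Hoxb8 and Hoxb9 the share was 0.8% or less, and for Hoxc6 and Hoxc8 0.4% or less. No source used here says if the counting took account of strand.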

How the data were processed

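The deposited table holds TPM values by gene, per the file headers, beside the authors' own group means, which were not used. Software named in the submitters' processing notes is fastp, HISAT and RSEM, with the build GRCm38.p5 and no versions. Titles of the samples gave genotype and replicate number. The series' design states 3 mice per genotype, and nothing else says how the samples were taken. The p-values thus set a genotype difference against the spread, as limma estimates it, between these libraries within a genotype. Hox genes were matched by symbol, and coordinates are from GENCODE M21 (GRCm38).

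A mean of 1 TPM or more was required for testing. The test was limma 3.58.1 under R 4.3.3 (lmFit, eBayes with trend, two-sided) on values of log2(TPM + 1), genotype being the single term, with Benjamini-Hochberg adjustment over all 13458 genes at 0.05. The fit was tested on simulated data. The members, the 18 gene lists and the tests were chosen with earlier results of these data known. Named were Tlr4, each Hox gene that reached 1 TPM in its mean or in any library, and of each list the called genes and the 2 of highest mean. A few genes that this rule picks are not reported here. Shared 50-base stretches were counted over the M21 transcripts. Figures were drawn with matplotlib 3.10.9. Alternatives were other pseudocounts, filters, scalings, variance settings and weights, a replicate block and each library left out.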

Additional observations from a re-analysis of the deposited data

How the results depend on the processing

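No Hox gene was called under any alternative except one: without WT replicate 1 there were 3, so the range over libraries left out was 0 to 3. Over all genes, 16 calls became 0 without a filter (3377 at an unadjusted p under 0.05), 7 at a mean of at least 5 TPM, 136 with array weights and 1 with a replicate block, and 0 to 367 with a library left out, 0 without WT replicate 2 (1681 unadjusted) or TLR4ΔIEC replicate 2 (2651 unadjusted) and 367 without TLR4ΔIEC replicate 1. Calls in the context lists, 4 of 131, became 0 without a filter, 2 without the eBayes trend, 9 with array weights, 0 with the replicate block and 0 to 10 with a library left out. The replicate block called 0 Hox genes, with 4 at an unadjusted p under 0.05. Deviations of same-numbered libraries correlated at −0.04, 0.04 and 0.12, which shows no clear pairing by number. Correlations this weak cannot exclude a shared litter or batch, since few libraries enter them. The 11 Hox genes at a mean of 1 TPM become 21 at 0.1 TPM and 3 at 5 TPM.

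Hoxb6, Hoxb7, Hoxb8 and Hoxb9 stayed positive wherever they were fitted; adjusted p-values ran from 0.0224 to 0.464, 0.0319 to 0.377, 0.0560 to 0.551 and 0.0224 to 0.420 in limma. Signs changed for Hoxc8 (−0.086 by median-of-ratios, −0.10 without the 20 highest genes, −0.20 to 0.33 with a library left out), Hoxc6 (0.13 with array weights, −0.14 to 0.14 with a library left out) and Hoxb2 (0.019 by quantile normalization, 0.0037 with array weights, −0.20 to 0.14 with a library left out); the cause was not tested. Rescaling moved the median of all genes from 0.16 to 0.03, 0.01 and 0.00 (median-of-ratios, quantile, without the 20 highest genes). Depth is unknown, so a gene at 0 cannot be called absent.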

Other observations

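Around and between the Hox genes, other transcripts of the clusters were low. Of 18 noncoding RNAs of the clusters, 17 were in the table, 10 were at 0 in all 6 libraries and none reached the mean needed for the test. Hotairm1, a noncoding RNA of the HoxA cluster, was the highest of them, at 0.18, 0.38 and 0.63 TPM in WT, against 0, 0.12 and 2.30 TPM in TLR4ΔIEC, where TLR4ΔIEC replicate 3 lay above all others. Hoxd3os1 came next, at 0.10 to 0.58 TPM.

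Genes flanking the clusters gave no call. Of 13 such genes in the table, 9 were tested and 0 called in limma. At an unadjusted p under 0.05 there were 0, beside 21.2% of all tested genes, and the median log2 fold change was 0.08. Hnrnpa3 and Hibadh were the highest, the latter at 28.20, 25.88 and 23.70 TPM in WT, against 31.69, 31.80 and 29.39 TPM in TLR4ΔIEC. The homeobox genes Evx1 and Evx2, which lie at the tail ends of HoxA and HoxD, were at 0 in all 6 libraries.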
